A study of Mus musculus with 6 samples.

Results

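Levels of 7 genes that govern the muscle cell programme were measured in resting soleus, a postural muscle of the calf. They were the myogenic regulatory factors Myod1, Myog and Myf6, the MADS-box factors Mef2a, Mef2c and Srf, and the secreted protein follistatin, Fst. The members were the probes that the platform annotation assigns to these genes, with 1 probe for each gene, which makes 7 of the 203 named genes and 7 of the 223 probes on the array. Total RNA from soleus of C57Bl/6 mice was hybridised to 6 arrays, with 3 µg of RNA for each, and all 6 samples are described as control mice. The titles number them 1 to 6 and carry the letters HUR and wt, which the labels do not explain, and they name no age, sex, agent or allele. Whether the arrays came from different mice is not stated, so p-values rest only on differences between these arrays, which may be technical. All samples form 1 group, and no conditions were compared.

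Myod1, Myog, Myf6 and the related Myf5 encode basic helix-loop-helix proteins that bind a short DNA element called the E-box and switch on muscle genes. MyoD and Myf5 act in muscle stem cells (satellite cells) and myoblasts, myogenin is required when myoblasts differentiate and fuse, and Myf6, also called MRF4, is known as the family member that persists in mature fibres. MEF2 proteins bind an A/T-rich element and work together with the myogenic factors, while serum response factor binds the CArG box of actin and immediate early genes. Follistatin binds and blocks myostatin and activins, which restrain muscle growth. In whole muscle RNA, fewer cells of a type and less RNA per cell cannot be told apart.

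Start regions of 4 of the 7 genes could be read from RefSeq (GRCm38.p6), with 1 window each for Myog, Mef2a and Srf and 3 windows for Mef2c. A window runs from 250 bases before the transcription start to 50 bases after it. The windows were searched on both strands for the E-box (CANNTG), the MEF2 site (YTAWWWWTAR) and the CArG box (CCWWWWWWGG), the elements these factors are known to bind. In these patterns N is any base, Y is C or T, W is A or T, and R is A or G. The Myog window held 2 E-boxes, 138 and 12 bases before the start. The Srf window held 2 CArG boxes, CCATATAAGG and CCATAAAAGG, 82 and 62 bases before the start, and Mef2a held 1 MEF2 site, CTAAAAATAG, beginning 2 bases before it. Of the 3 Mef2c windows, the first held 2 E-boxes, the second none of the 3 elements, and the third 1 E-box. By these patterns no window held more than 1 kind of element, and looser forms were not searched. The Myog window also held CTATATTTAT, which differs from the MEF2 pattern only in its last base and was not counted. Of all 32851 windows of this length, 72.3% held an E-box, 3.19% a MEF2 site and 1.63% a CArG box, so an E-box is a common match and the others are not. These are matches of letters and were not measured as binding sites. The bases before the start are shown for Myog (chr1:134289754-134290003, plus strand) and Srf (chr17:46556163-46556412, minus strand), because they carry the elements of 2 families of factor measured here, and the matches are in capitals.
Myog: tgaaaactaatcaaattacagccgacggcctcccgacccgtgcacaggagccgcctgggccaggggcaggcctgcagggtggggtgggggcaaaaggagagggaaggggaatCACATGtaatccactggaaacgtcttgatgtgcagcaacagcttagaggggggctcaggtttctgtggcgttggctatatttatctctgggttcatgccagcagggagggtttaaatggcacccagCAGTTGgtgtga
Srf: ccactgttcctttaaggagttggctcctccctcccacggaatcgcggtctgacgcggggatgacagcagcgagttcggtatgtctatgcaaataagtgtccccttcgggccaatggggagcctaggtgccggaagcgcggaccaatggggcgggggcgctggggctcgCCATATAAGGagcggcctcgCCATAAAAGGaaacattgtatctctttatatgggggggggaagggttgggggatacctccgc

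Each array held some deposited intensities (arbitrary units) below 0. The noise bound of an array was set to the size of its most negative intensity, and a signal under this bound cannot be sized. The summed intensity of an array ran from 31.0 in control 6 to 125.2 in control 4. Control 2 stood apart from the others, with 109 of the 223 probes above its bound against 143 to 166, and its 10 brightest probes made up 83.9% of the summed intensity against 76.2% to 81.3%. The spreads that moved most without control 2 are therefore also given without it. The slow fibre markers measured, the myosin heavy chain Myh7 and myoglobin, Mb, were above the bound on all 6 arrays. At their lowest relative to noise, Myh7 reached 470 times the bound and Mb 482 times. All 3 fast fibre markers measured, the myosins Myh1, Myh2 and Myh4, were also above the bound on all 6 arrays. Detection of these markers therefore did not tell slow from fast muscle. Of the 6 satellite cell markers listed, Myf5 and Vcam1 had a probe. Vcam1 lay above the bound on 3 arrays and Myf5 on none.

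All 7 genes gave an intensity above 0 on all 6 arrays, and 5 of them, Myog, Myf6, Mef2a, Mef2c and Srf, lay above the noise bound on all 6. Over all probes 68.6% were above 0 on all 6 arrays and 47.5% were above the bound on all 6. Fst lay above the bound on 5 arrays and Myod1 on 4, so all 7 genes were above it on at least 4 arrays, as were 67.7% of the probes. Without control 2 the count was 6 of the 7 genes on the remaining 5 arrays, with Fst added, and 129 of the 223 probes. The probe for Myf5, the remaining myogenic regulatory factor, lay above the bound on no array, unlike the 3 probes described here. Its intensities ran from -0.0021 to 0.0023. The highest, in control 3, reached 0.697 times the bound of that array, where Myod1 reached 0.636 times. Myf5 RNA was therefore not detectable with this probe, which is not a statement that it was absent.

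**Figure D1:**
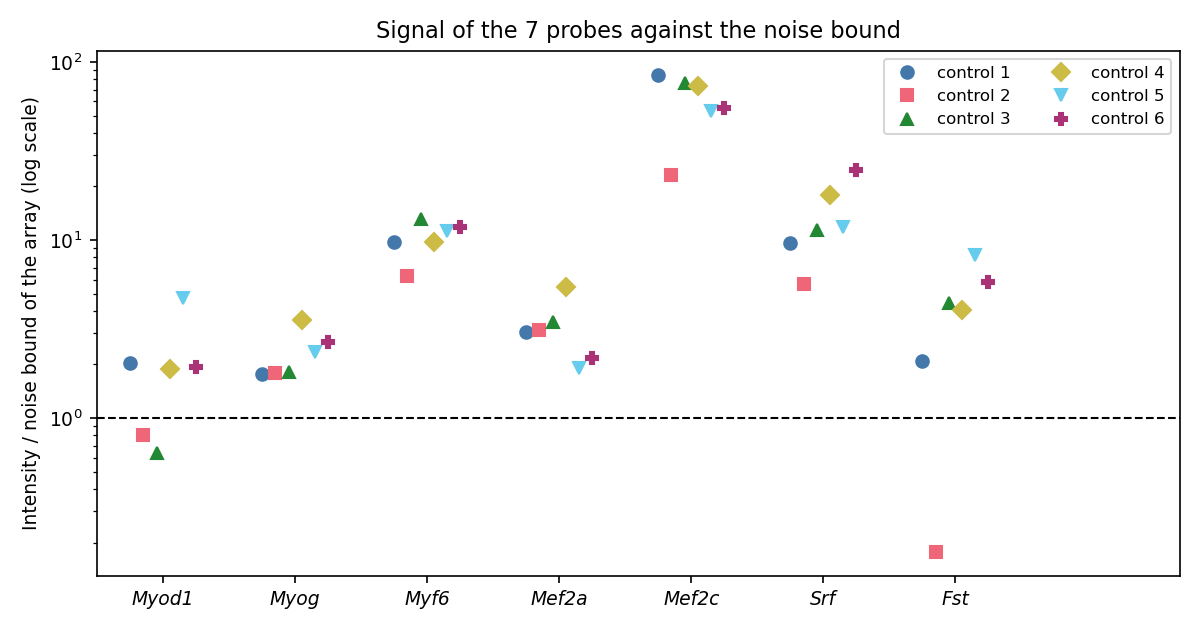
Intensity of each of the 7 probes divided by the noise bound of its array, on a log axis, with a symbol for each of the 6 control arrays and a dashed line at the bound. Myog, Myf6, Mef2a, Mef2c and Srf lie above the line on all 6 arrays, while Myod1 lies below it in controls 2 and 3 and Fst in control 2.

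Among the myogenic regulatory factors, the Myf6 probe stood clear of noise and the Myod1 and Myog probes lay close to it. Myf6 had intensities of 0.033, 0.039, 0.0434, 0.0844, 0.026 and 0.0214 in controls 1 to 6, which is 6.29 to 13.2 times the bound. The Myog intensities were 0.0060, 0.0111, 0.0060, 0.0308, 0.0054 and 0.0048, or 1.76 to 3.54 times the bound. Myod1 gave 0.0069, 0.0050, 0.0021, 0.0164, 0.0109 and 0.0035. Its highest value relative to noise was 4.74 times the bound, in control 5, and controls 2 and 3 lay at 0.806 and 0.636 times the bound. How these 3 probes compare with each other depends on their affinity, which was not measured, so the order does not rank the transcripts.

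All 7 genes had their highest raw intensity in control 4, the brightest array, so intensities were compared between arrays only after scaling. Each array was centred on its median log2 intensity over the 152 genes and unnamed probes that were above 0 on all 6 arrays. Levels are therefore log2 values, with 0 at the array's median, and all 7 genes passed this filter. Myf6 had a level of 0.77 ± 0.43 (SD, n = 6), with its highest value, 1.45, in control 2 and its lowest, 0.34, in control 5, and without control 2 its SD was 0.30. The level of Myog was -1.40 ± 0.64 (n = 6), from -2.01 in control 3 to -0.37 in control 2, and without control 2 its SD was 0.43. Myod1 had -1.87 ± 0.93 (n = 6), from -3.52 in control 3 to -0.91 in control 5. Since the value in control 3 was below the bound, the 6.09-fold distance between its highest and lowest array has no reliable size. With values raised to the bound, control 5 was 3.88-fold above control 3. This takes control 5 as measured and allows for no noise there, so it is not a lower limit. Without control 3 the SD was 0.51.

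The MADS-box factors were detected throughout and differed from each other in how closely the arrays agreed. Mef2c, the MEF2 family member known for its part in slow fibre and sarcomere genes, had intensities of 0.2887, 0.1438, 0.2515, 0.6362, 0.1219 and 0.0997, at least 23.2 times the bound on each array. Its level was 3.25 ± 0.59 (SD, n = 6), highest in control 1 at 4.16 and lowest in control 5 at 2.57. Mef2a gave signals of 0.0103, 0.0194, 0.0114, 0.0471, 0.0044 and 0.0039, which is 1.91 to 5.41 times the bound. Its level was -0.98 ± 1.02 (n = 6), with 0.44 in control 2 and -0.33 in control 4 at the upper end, and -2.22 in control 5 and -2.04 in control 6 at the lower. This is a 6.33-fold distance between arrays with every value above the bound. Without control 2 the distance was 3.71-fold and the SD 0.84. Srf, at 5.66 to 24.7 times the bound, had a level of 1.04 ± 0.43 (n = 6) and differed by 2.09-fold between control 6, at 1.47, and control 5, at 0.40.

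Fst gave intensities of 0.0071, 0.0011, 0.0146, 0.0354, 0.0190 and 0.0105 in controls 1 to 6. Control 2 was at 0.177 times its bound, and the other arrays were at 2.09 to 8.26 times theirs. The level was -1.18 ± 1.28 (SD, n = 6), with -3.70 in control 2 and -1.18 to -0.11 on the other arrays. The 12.0-fold distance between control 5 and control 2 therefore has no reliable size. Raised to the bound, control 2 lay close to control 1, and control 5 was 2.13-fold above control 2. This too takes control 5 as measured and is not a lower limit. Without control 2 the SD was 0.38, and with values raised to the bound it was 0.40. The spread of follistatin among these arrays thus rested on 1 value under the noise bound.

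**Figure D2:**
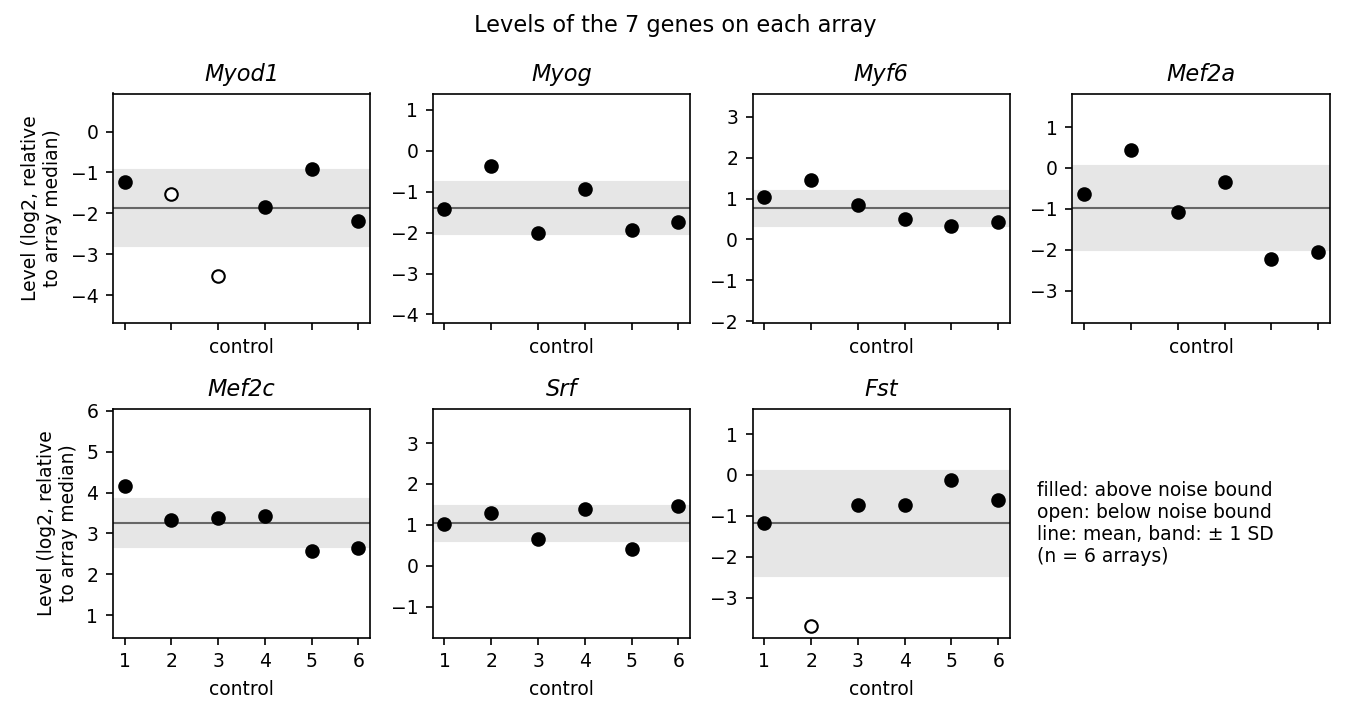
Level of each gene (log2 intensity relative to the array median) in controls 1 to 6, with the mean as a line and 1 SD as a grey band (n = 6 arrays), and with open symbols for values below the noise bound. The panels share the same height of log2 units, so Myf6 and Srf can be seen to vary less than Mef2a, while the low Myod1 value of control 3 and the low Fst value of control 2 are open symbols.

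The highest and lowest arrays were shared by several of the genes. Myog, Myf6 and Mef2a, 3 of the 7, had their highest level in control 2, while 27.0% of the 152 did so. Myf6, Mef2a, Mef2c and Srf, 4 of the 7, were lowest in control 5, and 38.2% of the 152 were. After cyclic loess, Mef2a and Srf of these were still lowest in control 5, Mef2c was lowest in control 6 and Myf6 in control 4. The position of the highest array was the same for each of the 7 genes after quantile normalization and after cyclic loess, which are other scalings. The arrays also differed in how many probes they resolved and in how far a few probes dominated the sum. The probes above the bound numbered 143, 109, 153, 155, 163 and 166 in controls 1 to 6, and the share of the 10 brightest probes in the sum was 81.3%, 83.9%, 78.9%, 78.4%, 76.2% and 76.6%. Their part in the levels of Mef2a and Myf6 was not tested.

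The spread of each gene was set against that of genes of like intensity. In limma, the variance of a gene was compared with a prior variance that follows intensity, in a one-sided F test. Adjusted p-values (Benjamini-Hochberg) cover all 152, and those under 0.05 were called. None of the 7 genes passed, against 1.32% of the 152, and 1 of the 7 and 9 of the 152 had an unadjusted p under 0.05. Fst came closest, with an SD of 1.28 where the prior SD was 0.57 (limma, adjusted p = 0.703). Mef2a followed with 1.02 against a prior of 0.52 (limma, adjusted p = 0.847). Myod1, with 0.93 against 0.79, and Myog, with 0.64 against 0.64, lay near the values for dim genes. Myf6 and Srf lay slightly under their priors of 0.46 and 0.47, and Mef2c slightly above its prior, 0.46. The median SD was 0.64 over the 7 genes and 0.54 over the 152, and 5 of the 7 exceeded the latter.

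**Figure D3:**
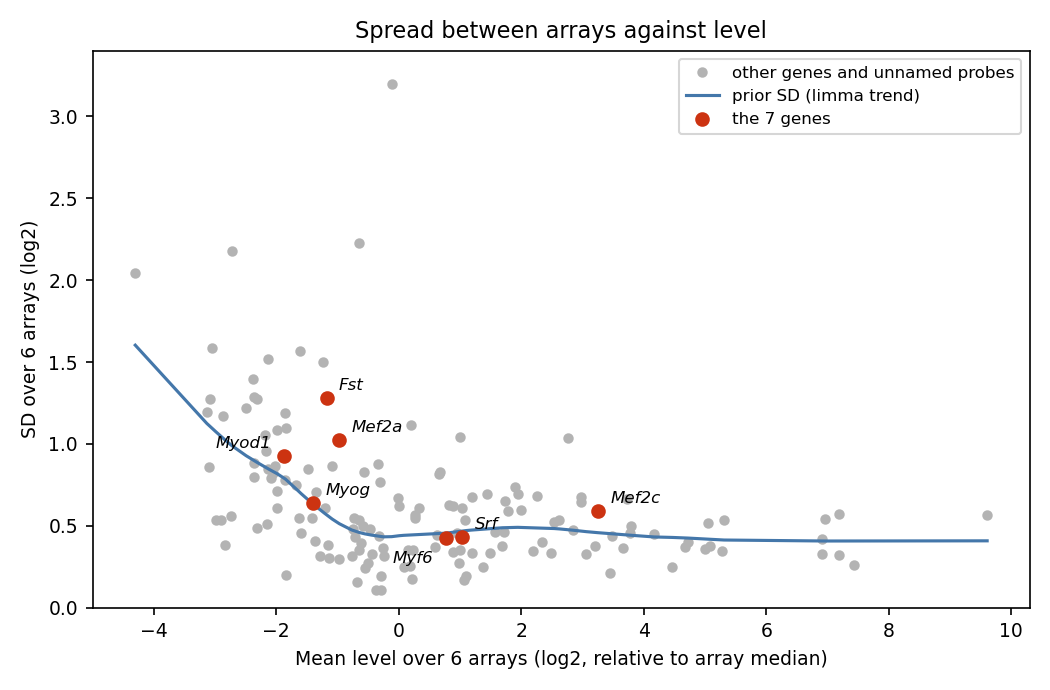
SD over the 6 arrays against mean level (both log2) for the 152 genes and unnamed probes, with the 7 genes in red and the prior SD of the limma trend as a line. Myf6, Srf and Myog lie close to the line, and Fst (1.28) and Mef2a (1.02) lie above it among genes of like level.

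A ratio of 2 probes on the same array does not depend on the brightness of the array. Its size still carries the affinity of both probes, so the interest lies in how it varies. Myogenin acts after MyoD during differentiation, and the ratio of Myog to Myod1 was 0.87, 2.22, 2.86, 1.88, 0.495 and 1.37 in controls 1 to 6. On the log2 scale it was 0.47 ± 0.94 (SD, n = 6). In controls 2 and 3 the Myod1 signal was under the bound, so the ratio there cannot be sized. Over the 4 arrays with both probes above the bound it was 0.04 ± 0.84 (n = 4), and the fold between control 4 and control 5 was 3.79.

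The noise bound was also used to judge how far each ratio could be moved by background. For this, the 2 intensities were moved in opposite directions by the bound of their array. This gave 0.252 to 2.69 in control 1, 0.88 to 5.13 in control 4 and 0.566 to 3.88 in control 6, ranges that all include 1. In control 5 the range was 0.235 to 0.895, so there the Myod1 probe was the brighter one within the bound. In controls 2 and 3 the lower ends were 0.438 and 0.50, with no upper end. The range of control 5 lay under 1 and overlapped the ranges of controls 1, 2, 3, 4 and 6. The overlap of controls 4 and 5 was narrow, from 0.88 to 0.895. These ranges are the widest that the bound allows, so their overlap does not show that the arrays were alike. A difference between arrays in Myog relative to Myod1 was not resolved at this signal.

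Mef2c and Mef2a gave a better measured ratio, since both probes were above the bound on all 6 arrays. It was 28.0, 7.41, 22.1, 13.5, 27.7 and 25.6 in controls 1 to 6, or 4.23 ± 0.76 on the log2 scale (SD, n = 6). Controls 1, 3, 5 and 6 lay close together, and controls 2 and 4 were lower. Moved by the noise bound, the ratio was 5.38 to 11.4 in control 2 and 11.2 to 16.8 in control 4. The other arrays had lower ends of 20.8, 16.9, 17.9 and 17.2, so the range of control 2 lay under all 4 of these and the range of control 4 ended below the lowest of them. The ranges of controls 2 and 4 overlapped slightly. Control 1 had 3.78 times the ratio of control 2. Without control 2 the arrays differed by 2.08-fold and the SD was 0.44. Control 2 and control 4 were also the arrays with the highest levels of Mef2a, and their Mef2c levels of 3.33 and 3.42 were in the middle of the range. Control 2 had the fewest probes above the bound and control 4 the highest summed intensity, and the part of either in the ratio was not tested.

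**Figure D4:**
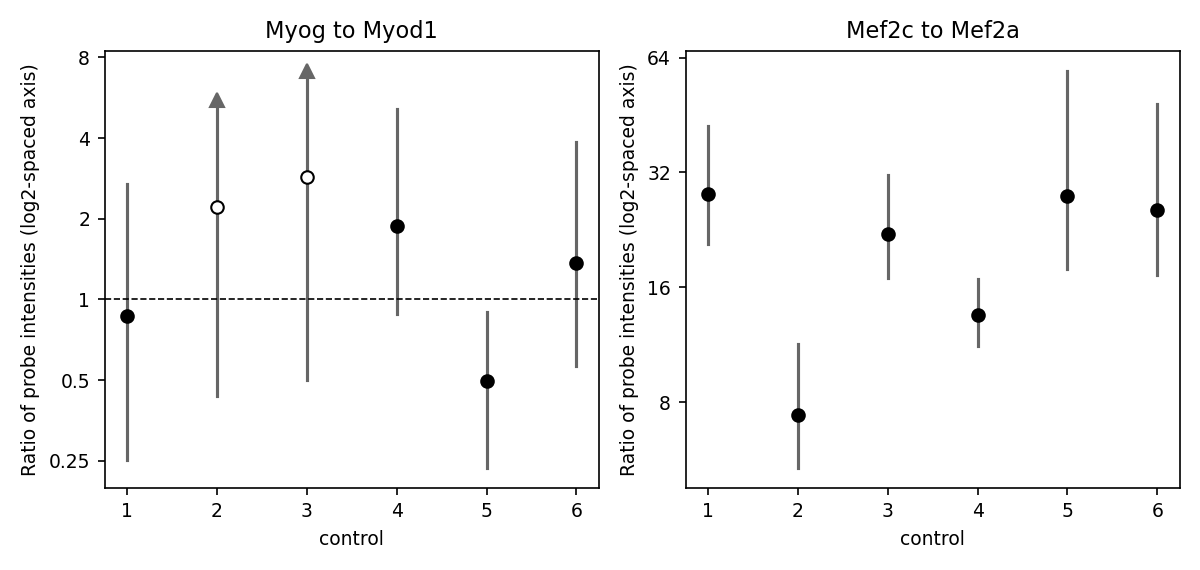
Ratio of probe intensities on each array, Myog to Myod1 on the left and Mef2c to Mef2a on the right, on log2-spaced axes. Bars show the range when the 2 intensities are moved in opposite directions by the noise bound of the array, and arrows mark ranges with no upper end. Open symbols mark a Myod1 signal under the bound, and the Mef2c to Mef2a ratio of control 2 (7.41) lies below those of controls 1, 3, 5 and 6.

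The levels within these 2 pairs were also compared over the arrays. Myog and Myod1 had r = 0.326, with a two-sided exact permutation p of 0.539 (n = 6), which adjusted over the 2 relations gave 0.539. Their rho was 0.257, with an exact permutation p of 0.658 before and after adjustment. Without controls 3 and 5, the arrays farthest from the median of Myod1, r was 0.364, and without control 3 alone it was -0.18. For Mef2c and Mef2a r was 0.671, with an exact permutation p of 0.143 and 0.286 on adjustment. The rho of 0.60 had an exact permutation p of 0.242, or 0.483 adjusted. Without controls 5 and 2, the arrays farthest from the median of Mef2a, r was 0.779. Neither relation passed the threshold. Over the 21 pairs among the 7 genes, 57.1% had an r above 0 and the median r was 0.149, or 0.056 without control 2. Over all 11476 pairs among the 152 the share was 52.7% and the median 0.06, with all arrays. Among the 7 genes, 12 of the 15 pairs without Fst had an r above 0, and all 6 pairs with Fst had an r below 0. Some of these signs changed with the arrays or the scaling. Myod1 and Mef2a had 0.012 with all arrays and -0.161 without control 2. Myog and Mef2c had 0.334, and -0.209 after cyclic loess. Fst had r = -0.893 with Myf6, -0.841 with Myog and -0.804 with Mef2a. With control 2 left out, where Fst was under the bound, these were -0.841, -0.465 and -0.762. Fst and Myod1 had -0.136 with all arrays and 0.172 without control 2. For Fst and Mef2c the values were -0.303 and -0.900. These pairs were described and not tested.

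For each gene, the 2 others with the most similar pattern were sought among the 95 genes above the bound on all 6 arrays. Pearson's r over the 6 arrays served as the measure of likeness, as a description with no test. All of these share the same arrays and their scaling. They were picked for a high r, so the size of r is partly a product of the choice. Mef2a was most like Fabp4, a fatty acid binding protein of adipocytes and capillary endothelium (r = 0.953), and the slow myosin Myh7 (0.952). Without control 2, on arrays already used for the choice, the values were 0.933 and 0.918. Myh7 levels were 7.34, 7.67, 6.86, 7.15, 6.15 and 6.62 in controls 1 to 6. The order of the arrays for Mef2a was that of Myh7 except for the exchange of neighbouring positions, with a rho of 0.943. Myog was most like the lipoprotein receptor Vldlr (r = 0.946) and again Fabp4 (0.943). Without control 2 these were 0.883 for Vldlr and 0.840 for Fabp4. Fabp4 was the only 1 of 4 adipocyte markers with a probe, at 2.53, 3.39, 1.87, 2.51, 1.59 and 1.69. Of 7 endothelial markers 5 had a probe, and their mean level was -0.12, 0.15, 0.30, 0.20, 0.55 and 0.34 in controls 1 to 6. The part of adipocytes or endothelium in these likenesses was not tested.

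Myf6 was most like the calpain inhibitor Cast (r = 0.950) and Dgat1, an enzyme of triglyceride synthesis (0.940). Mef2c was most like Igfbp5, an IGF binding protein of muscle (0.958), and Dmpk, the myotonic dystrophy protein kinase (0.945). For Mef2c both values were 0.985 without control 2. Srf was most like the aldolase isoform Aldoc (0.980) and Cox8a, a cytochrome c oxidase subunit (0.819), and the latter had 0.447 after cyclic loess. Fst was most like Angpt2, an angiopoietin (0.980), and the IGF binding protein Igfbp6 (0.890), which had 0.36 without control 2, where Fst was under the bound. Myod1 had the weakest likeness of the 7, with the matrix proteins Thbs1 (0.799) and Fn1 (0.631), and Fn1 had 0.307 after cyclic loess. Fn1 and Pdgfra were the 2 of 5 fibroblast markers with a probe, and their mean level was 1.29 in control 1 and -0.41 to 0.25 on the other arrays. The part of fibroblasts in the Myod1 level was not tested.

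Genes of the same pathways were followed from lists, and none of those measured passed the test for spread. Of 14 muscle genes known to be bound by myogenic or MEF2 factors, 8 had a probe and all 8 were above the bound on all 6 arrays. Their SD ran from 0.21 for the fast myosin Myh4 to 0.54 for Myh7, with a median of 0.39. Mef2a itself had 1.02 and Mef2c 0.59. These SDs were not taken at like signal, since the 8 genes had mean levels of 2.48 to 6.97 and Mef2a had -0.98. Of 15 genes of myostatin, activin and TGF-beta signalling, Tgfb1 alone had a probe, at a level of -0.30 ± 0.11 (SD, n = 6). Myostatin itself was not analysed here. Of 10 genes of the IGF and growth hormone axis, 9 had a probe and 7 passed the filter, with SDs from 0.17 for the growth hormone receptor Ghr to 0.70 for Igf1. The IGF receptor Igf1r was above the bound on 0 arrays. Of 8 serum response genes, Jun and Junb had a probe. Jun had a level of 1.69 ± 0.38 (n = 6), and Junb was at or below 0 on all 6 arrays. Of 8 genes of cell cycle exit in myoblasts, 5 had a probe, and their SDs spanned 0.35 for Rb1, which encodes the retinoblastoma protein, to 1.19 for the cyclin Ccnd1. Ccnd1 was under the bound in control 2, as Fst was, and its SD was 0.40 without that array.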

How the data were processed

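The deposited table holds 1 intensity value per probe and array, on a linear scale, for 223 probes and 6 arrays. How the arrays were scanned, corrected for background and scaled is not stated in the labels or the file. Probes were named through the platform annotation, which gives 1 gene for 205 probes and none for 18. All 7 gene identifiers were found in the RefSeq table of GRCm38.p6, used for names only, with the same symbols. Cross-hybridisation was not checked, as no probe sequences were used. Intensities above 0 on all 6 arrays were taken to log2, probes of a gene were averaged, and each array was centred on its median over the 152 genes and unnamed probes kept. Spread was tested with limma 3.58.1 in R 4.3.3, with a robust prior that follows intensity (6.12 prior degrees of freedom). Relations were tested over all 720 pairings of the 6 arrays. The members, lists, tests and alternatives were chosen with earlier results of these data known. By rule the text names the 7 genes, the 2 genes most like each, and for each pathway list the members with the smallest and largest SD. Myf5, Vcam1, Pdgfra, Igf1r, Junb, Cdkn1a, Cdk4 and the slow and fast fibre markers are named beyond it. The alternatives were other scalings, filters, noise bounds, a pseudocount of 0.00335 and each array left out in turn. The number of arrays limits the precision, and p-values rest only on differences between these arrays.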

Additional observations from a re-analysis of the deposited data

Results flagged for a closer look

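The Fst level in control 2 was -3.70, and its gap to the nearest other array was 0.702 of the whole range over the 6 arrays, above Dixon's 95% critical value of 0.625. The intensity there lay under the noise bound, at 0.177 times it. Of the 152 genes and unnamed probes, 19 (12.5%) had an array as far from the others by this criterion, while chance gives about 5% for normally distributed values. In 7 of the 19 that array was control 2. The other 6 of the 7 genes and both ratios did not pass it, with Myod1 next at 0.508.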

How the results depend on the processing

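No paired analysis was possible because the labels define a single group. None of the 7 genes passed the limma test for spread under any of 89 combinations of gene and alternative, with a lowest adjusted p of 0.410. Over all genes the count past the threshold, 2, was 0 after quantile normalization, after cyclic loess, with the noise-bound filter, with the pseudocount, without robust estimation and without the intensity trend. It was 1 with the filter of 4 arrays and with values raised to the bound, and with an array left out it ran from 0 (without control 2) over 1 (without control 1, 4 or 5) to 2. The SD of the Myog to Myod1 log2 ratio, 0.94, was 0.62 with the pseudocount and 0.66 to 1.05 with an array left out. That of the Mef2c to Mef2a log2 ratio, 0.76, was 0.44 (without control 2) to 0.85 with an array left out. The relation of Myog and Myod1 had r from -0.18 (without control 3) to 0.672 with an array left out, and neither relation passed the exact permutation test under any alternative run. The relation of Mef2c and Mef2a had r = 0.292 after cyclic loess and 0.828 without centring, where both levels carry the brightness of the array. The cause of these shifts was not tested. With a bound 3 times the root mean square of the intensities at or below 0, 89 of 223 probes and the same number of the 7 genes, 5, lay above it on all 6 arrays. Signal over background limits Myod1, Myog, Mef2a and Fst most.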

Other observations

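The cyclin-dependent kinase inhibitor Cdkn1a, known as a target of MyoD in differentiating myoblasts, is described here because its values stood out after they were seen. It lay above the noise bound on all 6 arrays, and its levels in controls 1 to 6 were -0.55, -0.34, -2.30, -2.37, -2.88 and -2.57. These values lay close to noise, at 3.24 and 1.82 times the bound in controls 1 and 2 and 1.22 to 1.5 times on the other arrays. Its SD of 1.10 did not pass the limma test (adjusted p = 0.911). Cdk4, a kinase of the cell cycle, had its lowest level, -1.87, in control 1 and its highest, 0.42, in control 6. It too lay close to noise in controls 1 and 2, at 1.29 and 1.21 times the bound. Its SD of 0.83 did not pass the limma test either (adjusted p = 0.911).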
